A study of Homo sapiens with 6 samples.

Results

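The genes described here were 44 protein-coding genes that act in ribosome biogenesis in the nucleolus. They were chosen by name, with earlier results of these data known, as a list often counted among the targets of the transcription factor MYC. All 44 were found among the 58735 genes of the deposited table. Each had enough reads to be tested, among 16116 tested genes in all. The cells were MG63, an established human osteosarcoma line. They were transfected with siRNA against FUBP1 (siFUBP1, n = 3) or with the negative control of that siRNA (siMock, n = 3), and RNA was taken 48 h later. Which of the study's FUBP1 siRNAs was used is not given. An effect of the siRNA on other genes cannot be told apart from that of the knockdown. No drug or other agent was given to either group, as far as the labels and the methods state. The comparison asked which of these genes differed in RNA level after the knockdown of FUBP1, a DNA- and RNA-binding protein known for its action on the MYC gene. Nothing in the labels says that the 3 samples of a group were separate cultures, so the p-values measure only the spread between these samples.

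Ribosomes are built in the nucleolus. RNA polymerase I transcribes a long precursor rRNA there, small nucleolar ribonucleoproteins (snoRNPs) guide its chemical modification, and a large cast of assembly factors folds, cuts and packs it with ribosomal proteins into the small and the large ribosomal subunit. The demand for ribosomes is high in growing cells, and many of these genes carry a binding site for MYC near their start. The 44 genes were placed in 5 roles: rRNA transcription (6 genes), snoRNPs and rRNA modification (8), small subunit assembly (13), large subunit assembly (12) and nucleolar proteins with several tasks (5).

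MYC and its partner MAX bind the 6-base E-box motif CACGTG, which reads the same on both strands. Since the list was drawn up as MYC targets, the sequences around this motif are shown for some members that differ in their response. The RefSeq table of promoters (build GRCh38.p14, 250 bases before to 50 after a start) held 37 of the 44 genes. It held none for BOP1, DDX18, TCOF1, NOLC1, RRP12, RRS1 or NOP58. Below are 30-base windows written 5′ to 3′ on the strand of the gene, with the motif in capitals. The first 6 genes had higher RNA in siFUBP1 cells, and UTP20, RRP9 and BYSL did not pass the test. NOP2, the only member with the motif that was called lower, is not shown. Its motif began 36 bases after the start, so the window ran past the end of the promoter sequence.
DDX21 (chr10:68956604-68956633, plus strand): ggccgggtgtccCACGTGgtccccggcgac
LYAR (chr4:4290068-4290097, minus strand): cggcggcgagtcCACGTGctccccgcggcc
WDR43 (chr2:28894658-28894687, plus strand): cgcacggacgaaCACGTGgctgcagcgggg
GAR1 (chr4:109815781-109815810, plus strand): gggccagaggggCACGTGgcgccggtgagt
PES1 (chr22:30591880-30591909, minus strand): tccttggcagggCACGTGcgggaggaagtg
FBL (chr19:39846356-39846385, minus strand): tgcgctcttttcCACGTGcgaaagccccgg
UTP20 (chr12:101280083-101280112, plus strand): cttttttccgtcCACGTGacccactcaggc
RRP9 (chr3:51941892-51941921, minus strand): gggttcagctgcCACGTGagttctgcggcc
BYSL (chr6:41921515-41921544, plus strand): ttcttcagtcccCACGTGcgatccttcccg
By GENCODE 29 the motif lay in an untranslated part of an exon in all of these genes but UTP20, where it began 10 bases before the start and outside the gene. It began 31 bases before the RefSeq start in DDX21 and 64 before it in LYAR. In WDR43, FBL, PES1 and GAR1 it began 4, 7, 14 and 32 bases after the start. The motif was in the promoters of 15 of the 37 members (40.5%), against 12.7% of the 10541 tested genes with a promoter in the table and 7.26% of all 35116 promoters of this length. Counted by promoter, 15 of the members' 47 promoters held it (31.9%). Of the 15 members with the motif, 10 were higher and 1 was lower in siFUBP1 cells, with a median log2 fold change of 0.35. Of the 22 members without it, 10 were higher and 1 was lower, with a median of 0.21. Over all tested genes, 30.1% were higher and 30.1% were lower. Whether the motif matters to the response was not tested, and a match is only a match of letters.

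FUBP1 itself had 237, 255 and 274 CPM in the siMock samples and 44.3, 43.4 and 53.0 CPM in the siFUBP1 samples, so 18.4% of its RNA was left. CPM is the count of a gene scaled to a common library size, with the library sizes adjusted by the TMM method of edgeR. Total counts were between 16309900 and 17484313 per sample, and no sample stood apart from its group. Of the markers expected in cells of osteoblast origin, vimentin (VIM) was at 141 to 159 CPM in siMock and 183 to 214 CPM in siFUBP1, COL1A1 at 108 to 118 and 45.4 to 45.7 CPM, and RUNX2 at 0.384 to 0.49 and 2.23 to 5.59 CPM. COL1A2 had no read in any sample, which allows up to 0.192 CPM (3 reads in the smallest scaled library), and SPARC reached at most 0.288 CPM, so both of these markers of the labelled cell type were at or near 0. The part of these differences in the results was not tested. Markers of epithelial, blood and endothelial cells were low beside VIM and COL1A1. EPCAM was at 3.78 to 4.91 CPM, CDH1 at most 1.35, PECAM1 at most 0.674, PTPRC at most 0.128 and KRT5 at 0. EPCAM was still above RUNX2 in every siMock sample, and above SPARC and COL1A2 in all samples. In bulk samples a change in the cells present and a change in the RNA per cell cannot be told apart. Levels were relative to the library, so a change in total RNA per cell would not be seen.

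RNA of most of the 44 listed genes was higher in siFUBP1 cells. At an adjusted p below 0.05 in edgeR's quasi-likelihood test, 25 of the 44 genes were higher (56.8%), 2 were lower (4.55%) and 17 were not called. Over all tested genes, 30.1% were higher and 30.1% were lower. The median log2 fold change of the 44 genes was 0.31, against 0.002 over all tested genes, and 35 of the 44 values were above 0. With a log2 fold change beyond 1 as a further condition, 3 members were higher, TCOF1, DDX21 and LYAR. None was lower by edgeR or DESeq2 at any p, since the lowest log2 fold change, that of NOP2, was -0.98. That condition was met by 8.16% of all tested genes upward and by 9.13% downward, so the 6.82% of the members past it upward were near the share over all genes. The siFUBP1 samples were all above the siMock samples for 28 members and all below for 2, against 32.2% and 31.7% of all tested genes. The members thus rose in more cases than tested genes at large, mostly by less than 1 on the log2 scale. They were chosen with earlier results of these data known, so this difference was not tested.

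**Figure D1:**
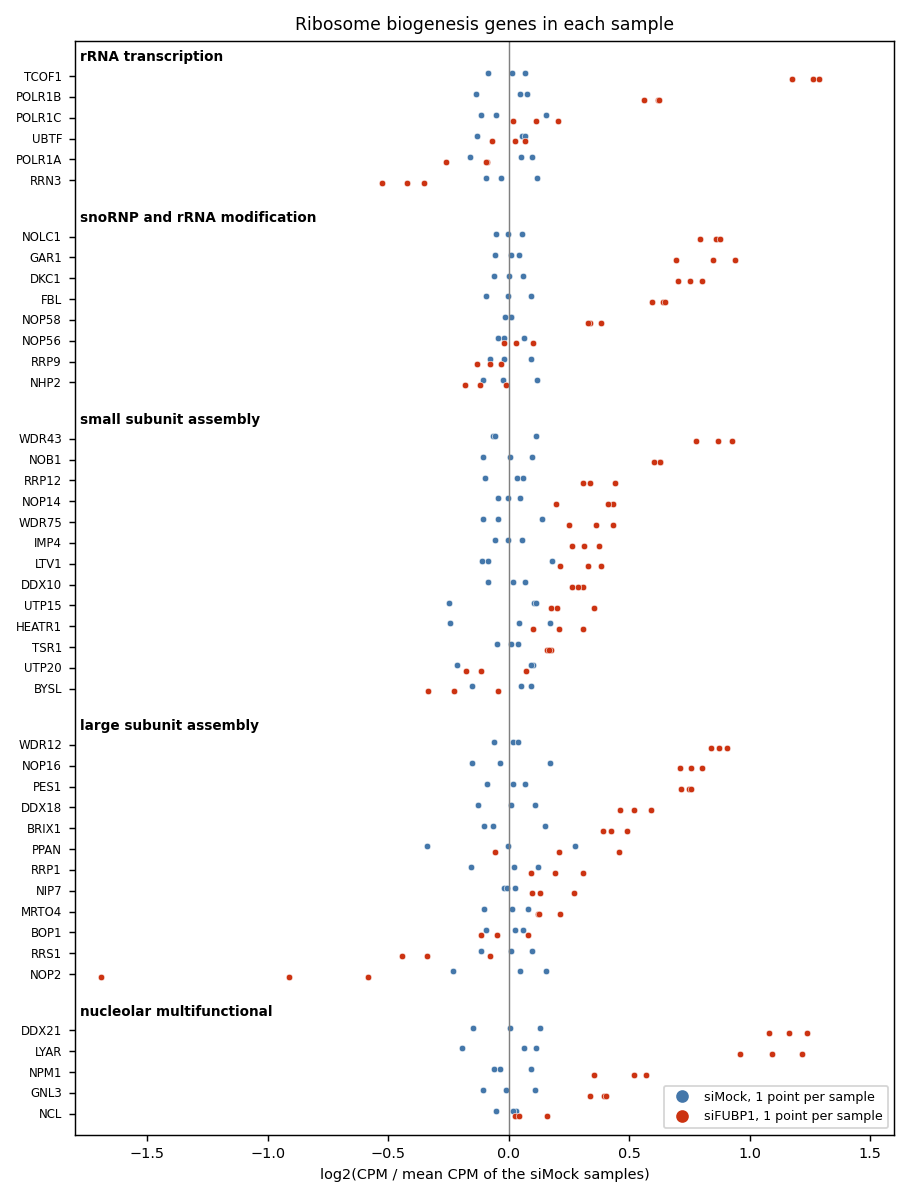
CPM of each of the 44 genes in each sample, as the log2 ratio to the mean of the siMock samples on the horizontal axis, with genes grouped by role. Each point is 1 sample, blue for siMock and red for siFUBP1, and the siFUBP1 points lie wholly to the right for 28 genes and wholly to the left for RRN3 and NOP2.

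Summed over the 44 genes, the level was 4672, 4807 and 5002 CPM in the siMock samples and 6670, 6637 and 6907 CPM in the siFUBP1 samples. This was 0.451 to 0.479% of the counts in siMock and 0.683 to 0.706% in siFUBP1. NPM1, DDX21 and NCL hold a large part of that sum. Without these, the sum was 2673 to 2786 CPM in siMock and 3574 to 3649 CPM in siFUBP1, so the groups lay apart with or without the most abundant genes.

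The roles differed in how many members were called. Nucleolar proteins with several tasks had 4 of 5 higher (median log2 fold change 0.48), snoRNP genes 5 of 8 (0.49), small subunit factors 9 of 13 (0.31) and large subunit factors 5 of 12 (0.21). Genes of rRNA transcription had 2 of 6 higher, with a median of 0.061. Over all tested genes 30.1% were higher, so the share in rRNA transcription (33.3%) was near that of genes at large. The share was 41.7% in large subunit assembly and larger in the other roles. Only rRNA transcription and large subunit assembly had a gene called lower, RRN3 and NOP2. The difference between roles was not tested.

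The machinery of rRNA transcription went in different directions. TCOF1 encodes treacle, a nucleolar scaffold that holds RNA polymerase I and its factors at the rRNA genes. It had 47.1, 52.3 and 50.5 CPM in siMock and 113, 120 and 122 CPM in siFUBP1, a log2 fold change of 1.25 ± 0.08 (SE, edgeR adjusted p = 6.90e-13). Its groups were far apart, and it rose the most of the 44 genes. POLR1B, one of the catalytic subunits of RNA polymerase I, had 53.7, 62.2 and 61.0 CPM in siMock and 90.5, 87.1 and 90.8 CPM in siFUBP1. It rose by 0.60 ± 0.082 (adjusted p = 5.37e-07). RRN3, the initiation factor that brings RNA polymerase I to the promoter, went the other way, with 67.5, 70.5 and 78.1 CPM in siMock and 53.8, 50.1 and 56.5 CPM in siFUBP1. It fell by 0.43 on the log2 scale (SE 0.085, adjusted p = 1.03e-04). All siFUBP1 samples were below all siMock samples for RRN3. RRN3 has 2 annotated pseudogenes that drew counts equal to 9.25% of its own, so its value could be shifted by reads that match both.

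The remaining genes of this role did not pass the test. POLR1A, the largest subunit of RNA polymerase I and the partner of POLR1B in its active centre, had 86.2, 99.9 and 103 CPM in siMock and 90.6, 80.5 and 90.2 CPM in siFUBP1. Its log2 fold change was -0.14, with a 95% interval of -0.31 to 0.019 (adjusted p = 0.138), and the groups overlapped. Its interval did not meet that of POLR1B, 0.44 to 0.76. The direction of POLR1A was not stable: its value was 0.034 after the GC and length correction, and -0.23 and called lower without siMock replicate 1 (adjusted p = 0.027). POLR1C, a subunit shared by RNA polymerases I and III, had 35.8, 31.0 and 29.7 CPM in siMock and 32.6, 34.8 and 37.1 CPM in siFUBP1, a log2 fold change of 0.12 (interval -0.074 to 0.31, adjusted p = 0.313). UBTF, which binds and bends the rRNA gene promoter, had 111, 112 and 97.7 CPM in siMock and 102, 109 and 112 CPM in siFUBP1. The samples of both groups overlapped for POLR1C and UBTF, and the interval of UBTF was -0.15 to 0.16 around a log2 fold change of 0.007 (adjusted p = 0.947).

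Genes of the snoRNPs rose in part. These particles carry a guide RNA and a set of core proteins. The box H/ACA kind turns uridine into pseudouridine with the enzyme DKC1, and the box C/D kind methylates ribose with the enzyme FBL. NOLC1, which escorts both kinds to the nucleolus, had 169, 175 and 182 CPM in siMock and 304, 318 and 322 CPM in siFUBP1, a log2 fold change of 0.85 ± 0.075 (adjusted p = 3.49e-10). DKC1 had 116, 121 and 126 CPM in siMock and 197, 211 and 204 CPM in siFUBP1, and rose by 0.76 ± 0.075 (adjusted p = 2.78e-09). GAR1, a small protein of the same particle, had 26.8, 27.4 and 25.6 CPM in siMock and 47.9, 51.0 and 43.0 CPM in siFUBP1, and rose by 0.83 ± 0.093 (adjusted p = 2.25e-08). For each of these genes the lowest siFUBP1 sample was well above the highest siMock sample. NHP2, another core protein of the H/ACA particle, had 65.1, 59.1 and 55.8 CPM in siMock and 55.2, 59.6 and 52.9 CPM in siFUBP1. Its log2 fold change of -0.10 had an interval of -0.27 to 0.067 (adjusted p = 0.320). Members of this particle that share a complex thus had intervals that did not meet, 0.61 to 0.90 for DKC1 and 0.65 to 1.01 for GAR1 against that of NHP2. Of the exonic bases of NHP2, 27.42% overlap RMND5B on the opposite strand. Whether counting used strand is not given, so its value could be shifted.

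The box C/D proteins showed a like spread. FBL had 125, 117 and 110 CPM in siMock and 183, 184 and 177 CPM in siFUBP1, and rose by 0.63 ± 0.076 (adjusted p = 9.02e-08). NOP58, one of the paired scaffold proteins of the particle, had a log2 fold change of 0.35 ± 0.073 (adjusted p = 1.96e-04), with 119 to 121 CPM in siMock and 151 to 157 CPM in siFUBP1. The rise of NOP58 was steady across samples, but once GC content and length had been corrected for it was 0.12 and no longer called (adjusted p = 0.079). NOP56, its partner, had 115, 122 and 113 CPM in siMock and 125, 115 and 119 CPM in siFUBP1. The groups overlapped for NOP56, and its log2 fold change of 0.04 had an interval of -0.11 to 0.19 (adjusted p = 0.667). RRP9, a protein particular to the U3 snoRNP that takes part in early cuts of the precursor rRNA, had 20, 19.2 and 21.6 CPM in siMock and 18.5, 19.8 and 19.2 CPM in siFUBP1. It did not pass the test either (log2 fold change -0.078, interval -0.28 to 0.13, adjusted p = 0.542).

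Several members also hold snoRNA genes within their bounds, and such guide RNAs are commonly cut from the introns of a host transcript. There were 9 such hosts with 28 annotated small nucleolar or Cajal body RNAs, among them DKC1, GNL3, NCL, NOP56, NOP58 and WDR43. Of the 9 hosts, 4 were higher and 5 were not called, with a median log2 fold change of 0.22. For comparison, 30.1% of all tested genes and 56.8% of the 44 members were higher. The small RNAs themselves were hardly captured. Of the 28, 13 had no read in any sample, the highest count of any was 26, and 2 had enough reads to be tested. By GENCODE 29, 11 of the 28 share bases with an annotated exon of the host on the same strand, and 10 of the 13 at 0 are among these. How the counting treated the shared bases is not given in the sources used here. Libraries were made from RNA with a poly(A) tail and selected for longer fragments, and these counts say nothing of the level of the mature snoRNAs.

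Small subunit assembly, the role with the most members, had 9 of 13 genes called higher (69.2%), against 30.1% of all tested genes. Most of these changes were small. WDR43, a part of the complex that first binds the nascent precursor rRNA, had 52.8, 53.2 and 59.8 CPM in siMock and 94.6, 105 and 101 CPM in siFUBP1, and rose by 0.86 ± 0.082 (adjusted p = 1.31e-09). NOB1, the nuclease that makes the mature end of the small subunit rRNA, had 55.8, 48.4 and 52.3 CPM in siMock and 80.6, 80.7 and 79.3 CPM in siFUBP1, and rose by 0.62 ± 0.082 (adjusted p = 3.48e-07). RRP12, which takes part in export of the subunits, had 52.9, 51.9 and 47.3 CPM in siMock and 64.1, 68.9 and 62.8 CPM in siFUBP1, and rose by 0.36 ± 0.084 (adjusted p = 5.67e-04). These 3 genes rose the most of the role, and for each the groups did not overlap. Beside them, NOP14, WDR75, IMP4, LTV1, DDX10 and UTP15 rose by 0.25 to 0.35. The correction for GC content and length moved RRP12 to 0.57 and WDR75 from 0.35 to 0.21, and both were still called. NOP14 and IMP4 act with the U3 snoRNP, WDR75 and UTP15 belong to the same early complex as WDR43, and LTV1 acts in late maturation of the subunit.

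The genes with changes at the edge of the threshold need care. UTP15 was called with an adjusted p of 0.0412, with 25.3, 32.3 and 32.5 CPM in siMock and 33.9, 34.5 and 38.4 CPM in siFUBP1. Its lowest siFUBP1 sample was just above its highest siMock sample, and without siMock replicate 1 its log2 fold change was 0.13 and it was not called (adjusted p = 0.29), nor was it without siFUBP1 replicate 3 (adjusted p = 0.164) or by DESeq2 (adjusted p = 0.0871). LTV1 had 21.4, 21.8 and 26.2 CPM in siMock and 29.1, 26.8 and 30.2 CPM in siFUBP1 (adjusted p = 0.0112). After the GC and length correction its log2 fold change was 0.073 and it was not called (adjusted p = 0.499), nor was it called without siMock replicate 1 or siMock replicate 2 (adjusted p = 0.0576 and 0.0596). Of its exonic bases, 27.67% lie in another annotated gene on the same strand. HEATR1, a large protein of the early complex, just missed the threshold (log2 fold change 0.21, adjusted p = 0.0559), with 81.8, 99.9 and 109 CPM in siMock and 112, 104 and 120 CPM in siFUBP1. In HEATR1 the overlap of the groups came from 1 pair of samples, and it was called without siMock replicate 3 (adjusted p = 0.00784) or siFUBP1 replicate 2 (adjusted p = 0.0259). DDX10 was not called without siMock replicate 3 (adjusted p = 0.0512).

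At the lower end of the role, TSR1, UTP20 and BYSL were not called. TSR1, a factor of late maturation, had 66.7, 69.6 and 70.9 CPM in siMock and 78.1, 77.1 and 77.5 CPM in siFUBP1 (log2 fold change 0.17 ± 0.078, adjusted p = 0.0657). Its siFUBP1 samples were all above the siMock samples, and TSR1 was called higher under 7 of 17 alternatives, among them the GC and length correction (0.22, adjusted p = 0.00419). UTP20, a very large scaffold protein, had 73.3, 91.1 and 90.6 CPM in siMock and 78.5, 75.2 and 89.3 CPM in siFUBP1 (log2 fold change -0.07, interval -0.25 to 0.11, adjusted p = 0.526). BYSL, which acts late in small subunit assembly, had 43.2, 42.0 and 36.5 CPM in siMock and 32.2, 39.3 and 34.7 CPM in siFUBP1 (log2 fold change -0.20, interval -0.39 to -0.0078, adjusted p = 0.0813). The groups overlapped for UTP20 and BYSL, and BYSL was called lower without siMock replicate 3 or siFUBP1 replicate 2 (adjusted p = 0.0225 and 0.0301).

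Large subunit assembly was split. WDR12, PES1 and BOP1 form a complex that is needed to process the large subunit rRNA. WDR12 had 31.8, 30.1 and 32.2 CPM in siMock and 58.7, 57.4 and 56.1 CPM in siFUBP1, and rose by 0.87 ± 0.086 (adjusted p = 2.53e-09). PES1 had 86.3, 83.3 and 77.2 CPM in siMock and 138, 135 and 139 CPM in siFUBP1, and rose by 0.74 ± 0.077 (adjusted p = 5.70e-09). BOP1 had 78.1, 76.4 and 70.3 CPM in siMock and 69.2, 79.3 and 72.4 CPM in siFUBP1, with a log2 fold change of -0.026 (interval -0.19 to 0.14, adjusted p = 0.808). The 3 partners therefore did not move as 1 group: the interval of BOP1 met neither that of WDR12 (0.70 to 1.04) nor that of PES1 (0.59 to 0.89). After the correction for GC content and length BOP1 had a log2 fold change of 0.21 and was called higher (adjusted p = 0.0111).

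Among the other large subunit factors, NOP16 had 20.8, 19.2 and 24.0 CPM in siMock and 36.0, 34.9 and 37.2 CPM in siFUBP1, and rose by 0.76 ± 0.10 (adjusted p = 3.48e-07). The helicase gene DDX18 rose by 0.53 ± 0.079 and BRIX1 by 0.44 ± 0.08 (adjusted p = 2.33e-06 and 3.58e-05). The corrected value of BRIX1 was 0.21 and was still called (adjusted p = 0.00484). RRP1, NIP7 and MRTO4 had log2 fold changes of 0.20, 0.17 and 0.15 and were not called (adjusted p = 0.0638, 0.0883 and 0.0997), although for NIP7 and MRTO4 the groups did not overlap. RRP1 was called higher without siMock replicate 1 or siFUBP1 replicate 3 (adjusted p = 0.0284 and 0.0341), and after the GC and length correction (log2 fold change 0.39). PPAN had only 57 to 110 reads per sample and a log2 fold change of 0.22 with a wide interval, -0.17 to 0.60. Since 56.02% of its exonic bases also belong to the read-through gene PPAN-P2RY11 on the same strand, its count may be incomplete.

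The lowest values of the role were those of RRS1 and NOP2. RRS1, which helps to bring the small rRNA of the large subunit into the particle, had 18.2, 19.3 and 16.7 CPM in siMock and 14.3, 17.1 and 13.3 CPM in siFUBP1. Its log2 fold change of -0.28 (SE 0.12) lay at the threshold without passing it (adjusted p = 0.05 when rounded), and 1 siFUBP1 sample, replicate 2, lay within the siMock range. Without that sample RRS1 was called lower (-0.38, adjusted p = 0.0156), as it was without siMock replicate 3 (adjusted p = 0.0308). NOP2, a methyltransferase of the large subunit rRNA, had 1.78, 1.47 and 1.92 CPM in siMock and 0.533, 1.15 and 0.916 CPM in siFUBP1, from 25 to 30 reads and 9 to 20 reads per sample. It was called lower, with a log2 fold change of -0.98 (SE 0.36, adjusted p = 0.0200), and the groups did not overlap. Its value is uncertain. Of its 4687 exonic bases, 2550 (54.41%) lie on the same strand in AC006064.6, which had no read in any sample, and how the counting treated reads in both genes is not given in the sources used here. Without siFUBP1 replicate 1 the log2 fold change of NOP2 was -0.72 and it was not called (adjusted p = 0.119), nor was it called by DESeq2 (adjusted p = 0.0884) or without siMock replicate 3 (adjusted p = 0.0645).

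**Figure D2:**
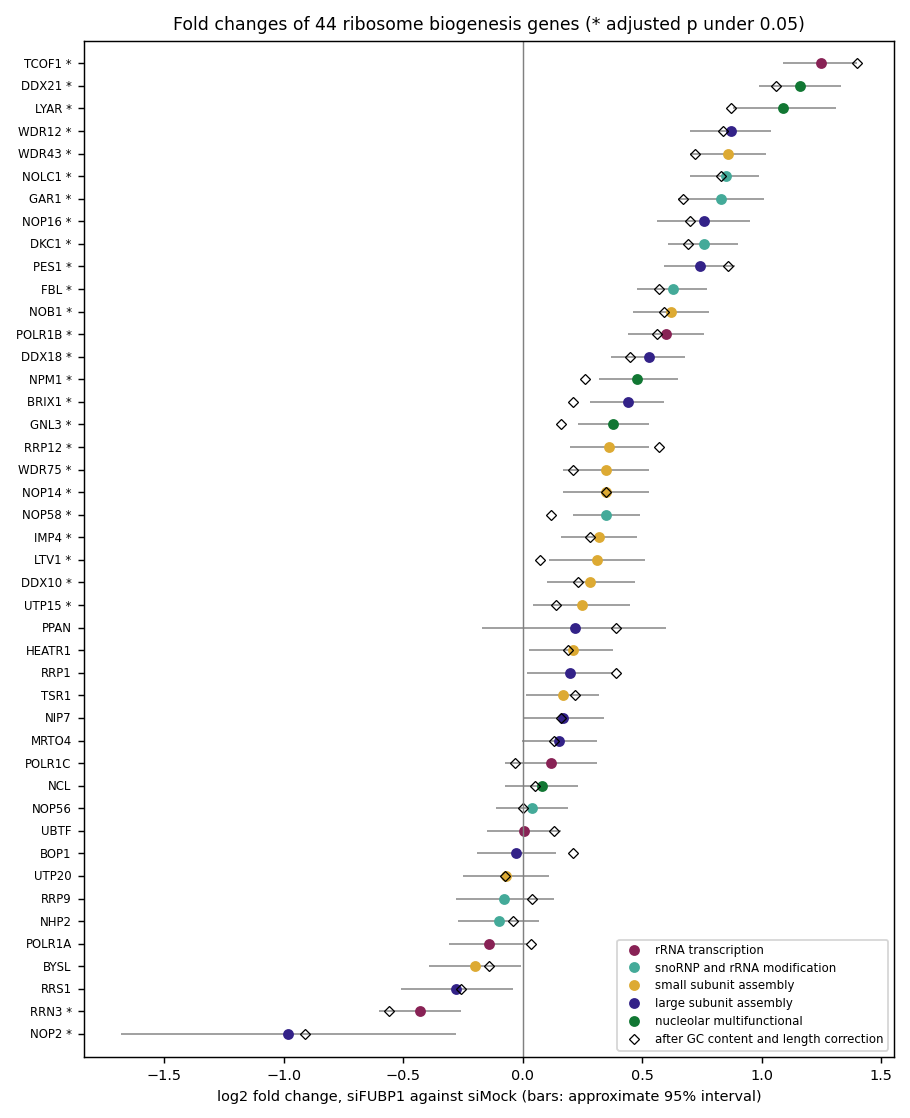
Log2 fold change of each gene, siFUBP1 against siMock, from edgeR (filled points, coloured by role, with approximate 95% intervals) and with GC content and length corrected for (open diamonds), with genes in order of the uncorrected value on the vertical axis. An asterisk marks the 27 genes with an adjusted p under 0.05, which run from TCOF1 at 1.25 to UTP15 at 0.25 on the right and hold RRN3 and NOP2 on the left.

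The nucleolar proteins with several tasks held the most abundant genes of the list. DDX21, an RNA helicase that acts on rRNA transcription and processing, had 411, 457 and 499 CPM in siMock and 963, 1075 and 1020 CPM in siFUBP1, and rose by 1.16 ± 0.086 (adjusted p = 1.05e-11). LYAR, a zinc finger protein that promotes precursor rRNA processing, had 16.5, 13.8 and 17.1 CPM in siMock and 33.7, 30.7 and 36.7 CPM in siFUBP1, and rose by 1.09 ± 0.11 (adjusted p = 2.30e-09). Both genes lay far outside the siMock range in each siFUBP1 sample. After the GC and length correction the log2 fold change of LYAR was 0.87, so that it no longer passed 1. NPM1, the chaperone nucleophosmin, had 1094, 1076 and 1198 CPM in siMock and 1611, 1435 and 1666 CPM in siFUBP1, and rose by 0.48 ± 0.085 (adjusted p = 2.36e-05). It has 45 annotated pseudogenes, which drew counts equal to 1.83% of its own. GNL3, the GTPase nucleostemin, had 164, 175 and 190 CPM in siMock and 232, 223 and 233 CPM in siFUBP1, and rose by 0.38 ± 0.077 (adjusted p = 1.25e-04). The corrected values of NPM1 and GNL3 were smaller, 0.26 and 0.16, and both were still called.

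NCL, nucleolin, was the exception in this role. It had 494, 523 and 519 CPM in siMock and 522, 528 and 572 CPM in siFUBP1. The log2 fold change was 0.079 with an interval of -0.073 to 0.23 (adjusted p = 0.395), and the groups overlapped.

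Levels of different genes can be compared only per length, and the deposited FPKM values served for this. NPM1 had the highest level, 290 ± 16.3 FPKM (SD, n = 3) in siMock and 408 ± 30.0 FPKM in siFUBP1. DDX21 followed with 89.7 ± 8.61 FPKM in siMock and 202 ± 11.7 FPKM in siFUBP1. Next in siMock came NCL (73.1 ± 2.29 FPKM), FBL (53.5 ± 3.41) and GNL3 (52.5 ± 3.81), of which FBL and GNL3 differed by less than their SD. In siFUBP1 the order below DDX21 was FBL (82.9 ± 2.10), NOLC1 (78.9 ± 2.45) and NCL (77.6 ± 3.82), and NOLC1 and NCL differed by less than their SD. The lowest levels were those of NOP2 (0.363 FPKM in siMock, 0.184 in siFUBP1), PPAN (1.77 and 2.07) and DDX10 (2.94 and 3.6). NOP2 and PPAN share 54.41% and 56.02% of their exonic bases with another gene on the same strand, so their values may be incomplete. Levels thus spanned several orders of magnitude with NOP2 counted. DDX10 and NPM1, at 2.94 and 290 FPKM in siMock, bounded the genes other than NOP2 and PPAN. Both abundant and scarce members rose.

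**Figure D3:**
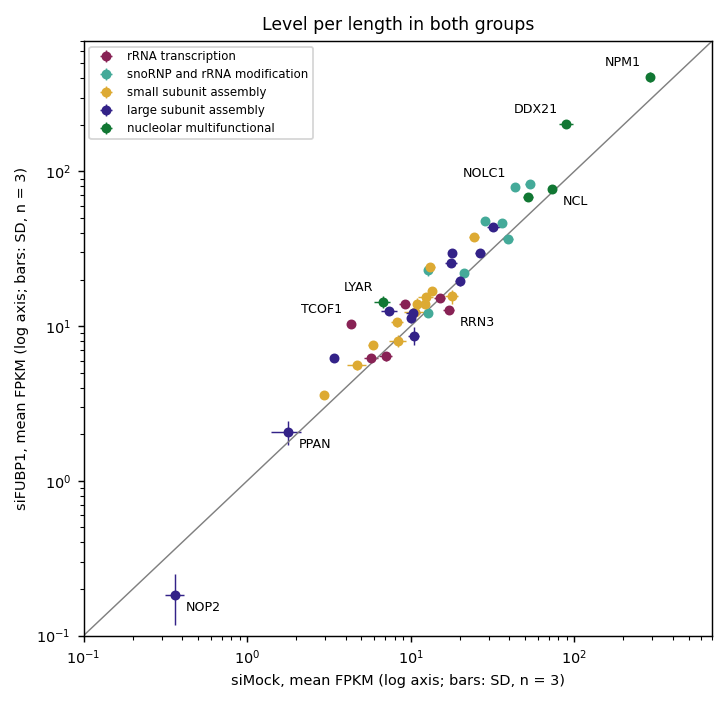
Mean FPKM of each gene in siMock (horizontal) and siFUBP1 (vertical), both on log axes, with bars for the SD of 3 samples, colours for the roles and a grey line of equal levels. NPM1 lies at the top right at 290 and 408 FPKM, DDX21 and TCOF1 lie well above the line, NCL lies near it, and NOP2 is the lowest point at 0.363 and 0.184 FPKM.

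The fold changes varied with base composition. Over the 44 genes, Spearman's rho between log2 fold change and the GC content of the transcript was -0.332, and over all tested genes, which come from the same libraries, it was -0.203. Members had a median GC content of 48.4% and 4227 exonic bases, close to the 48.9% and 4326 of all tested genes. Their median level was 69.8 CPM, against 21.1 over all tested genes. Of the 17 members under 45% GC, 14 were called higher, with a median log2 fold change of 0.38. Of the other 27 members, 11 were called higher, with a median of 0.17. Over all tested genes the medians of these classes were 0.14 and -0.078. Of all tested genes 30.1% were called higher, and the share by class was not computed. After the correction for GC content and length, 26 members were higher and 3 were lower, with a median of 0.22, against 30.9% of all tested genes higher and 30.9% lower. Of the 25 genes called higher before the correction, 22 were still called, and LTV1, NOP58 and UTP15 were not. RRP1, HEATR1, TSR1 and BOP1 were called higher only after it, and RRS1 was called lower (-0.26, adjusted p = 0.0492).

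Outside the list, 122 further ribosome biogenesis genes, also chosen with earlier results of these data known, were tested. Of these, 60 were higher (49.2%) and 20 were lower (16.4%), with a median log2 fold change of 0.24, against 30.1% of all tested genes in each direction. Small subunit factors (23 of 42 higher, 3 lower) and large subunit factors (25 of 46 higher, 9 lower) made up most of them. In rRNA transcription, 5 of 10 were higher and 1 was lower, and among other snoRNP genes 3 of 10 were higher and 1 was lower. The RNA exosome, which trims the precursor rRNA, and the nucleases that cut it had 4 of 14 higher (28.6%) and 6 lower (42.9%), with a median of -0.03. The share higher was near that of all tested genes for the exosome group and for the other snoRNP genes (30.0%). The 3 with the largest rise were RSL24D1, a factor of large subunit assembly, PUM3, a nucleolar RNA-binding protein, and RIOK1, a kinase of late small subunit maturation. RSL24D1 had 77.4, 72.0 and 81.6 CPM in siMock and 205, 195 and 193 CPM in siFUBP1, a log2 fold change of 1.36 ± 0.078 (adjusted p = 7.02e-14). PUM3 and RIOK1 rose by 1.33 and 1.3 (adjusted p = 2.43e-13 and 1.23e-11). The 3 with the largest fall were EXOSC4, a core protein of the exosome, MDN1, a giant ATPase that remodels the large subunit, and NOL12. EXOSC4 had 24.6, 23.4 and 20.1 CPM in siMock and 10.2, 10.1 and 11.2 CPM in siFUBP1, and fell by 1.11 on the log2 scale (adjusted p = 9.93e-09). MDN1 fell by 0.85 and NOL12 by 0.75 (adjusted p = 1.76e-08 and 0.00145).

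**Figure D4:**
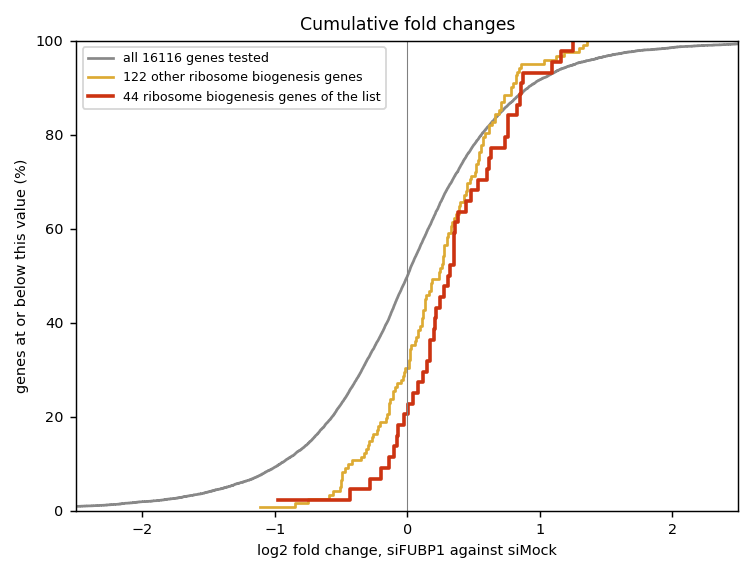
Share of genes (vertical axis, %) at or below a given log2 fold change, siFUBP1 against siMock (horizontal axis), for the 44 genes of the list (red), 122 other ribosome biogenesis genes (yellow) and all 16116 tested genes (grey). The medians are 0.31, 0.24 and 0.002, and the tails of all tested genes run past those of both lists.

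These factors assemble the precursor rRNA with ribosomal proteins into the ribosomal subunits. Of 85 tested genes of cytosolic ribosomal proteins, 5 were higher (5.88%) and 22 were lower (25.9%), against 30.1% of all tested genes in each direction, with a median log2 fold change of -0.094. After the GC and length correction, 45 of them were lower. Scaled by total counts alone, 14 were higher and 14 were lower, and without siMock replicate 1 the number lower was 14. Without siMock replicate 2, 3 were higher. The count and the balance of these calls therefore varied with scaling by total counts, with the GC and length correction and with single samples. With RLE size factors 5 were higher and 23 lower, and with upper quartile scaling 6 and 19. Many of these genes have processed pseudogenes, so single values are not given.

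MYC had 85.1, 76.8 and 75.3 CPM in siMock and 188, 229 and 184 CPM in siFUBP1, a log2 fold change of 1.34 ± 0.088 (adjusted p = 1.05e-12). MAX, its partner at the E-box, had 35.6, 36.2 and 34.3 CPM in siMock and 44.6, 50 and 44.3 CPM in siFUBP1 and rose by 0.39 ± 0.089 (adjusted p = 5.29e-04). All siFUBP1 samples were above all siMock samples for both genes. MYCN, a relative of MYC, had 12, 10 and 10 reads in siMock and 1, 1 and 0 reads in siFUBP1 and was below the filter for the test. Its reads were fewer in each siFUBP1 sample than in any siMock sample, unlike those of MYC and MAX. Whether these changes had a part in those of the ribosome biogenesis genes was not tested.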

How the data were processed

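RNA of 6 samples of MG63 cells, grouped by their titles and transfection labels, was sequenced by the authors after selection with poly-T beads. The authors deposited read counts per gene, not normalized. They also deposited FPKM values, scaled by gene length and library size. The labels name HISAT2 2.0.5, StringTie 1.3.3b, featureCounts 1.5.0-p3 and DESeq2 1.16.1. Whether counting used strand is not given in the sources used here, so reads of overlapping genes on opposite strands may not be told apart. Besides NHP2, such overlaps covered 23.15% of the exonic bases of HEATR1 and 20.67% of TSR1. They covered 20.25% of NOB1, 20.15% of NIP7 and 17.1% of NOP14, and smaller shares of other members. The group means, fold changes and p-values of the authors' own comparison were not used. Genes matched GENCODE 29 (GRCh38).

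The main test used edgeR 4.0.16 (R 4.3.3): expression filter, TMM factors (0.959 to 1.05), robust quasi-likelihood fit and F test, and Benjamini-Hochberg adjustment over 16116 genes. The common dispersion was 0.00684. Total counts were between 16309900 and 17484313, and limits from counts cover counting error only. Approximate 95% intervals are the fold change ± 1.96 SE. Calls were made at an adjusted p under 0.05, as in the study's methods, and a log2 fold change beyond 1 was the stricter condition. An exact test of 3 against 3 samples for a single gene cannot go below p = 0.1. No pair of libraries agreed within sampling noise (lowest chi-square per gene 5.37). The GC and length correction took a loess trend (span 0.3) fitted on genes averaging 50 counts or more as offsets. The scripts were tested on simulated counts with 200 changed genes.

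The 44 genes, their roles and the other lists were chosen with earlier results of these data known, so no list was tested as such. Values per sample are given for every gene of rRNA transcription and of the nucleolar role, and for the 3 largest and 3 smallest fold changes of the other roles. Values of FBL, UTP15, LTV1, HEATR1 and NOP58 were added after they were seen. Of the 122 other genes, the 3 largest rises and falls among called genes are named. Alternatives were other scalings and filters, DESeq2 1.42.0, limma 3.58.1 on log2(FPKM + 1) and log2(FPKM + 0.1), the replicate number as a block, the correction above and leaving out each sample in turn.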

Additional observations from a re-analysis of the deposited data

How the results depend on the processing

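The count of members called higher stayed within 1.5 times 25 under all 17 alternatives. The count called lower, 2, was 1 with DESeq2 and ranged from 1 to 4 when 1 sample was left out (1 without siFUBP1 replicate 1 and 4 without siFUBP1 replicate 2). With the further condition on the fold it was 0, and 0 to 1 when 1 sample was left out. The median log2 fold change of the members, 0.31, was 0.36 with upper quartile scaling, 0.41 with total counts only, and 0.22 with the GC content and length correction, also with the replicate block added. Total counts only moved the median of all tested genes from 0.002 to 0.10, so that relative to it the members moved less. Ribosomal protein genes called higher, 5, were 14 with total counts only. Those called lower, 22, were 14 with total counts only, 45 with the GC correction and 48 with the correction and the replicate block. Leaving out 1 sample gave 3 to 6 higher and 14 to 27 lower (fewest without siMock replicate 2 and siMock replicate 1). Over 46 genes and 17 alternatives, 714 of 782 values kept direction and call, 17 lost the call, 36 gained one and 15 changed sign, and 22 of the 27 called members kept their call under every alternative. The exceptions were DDX10, LTV1, NOP2, NOP58 and UTP15. Of the values that changed sign, 2 were called, both of BOP1 with the GC correction (adjusted p = 0.0111, and 0.00807 with the block), and they are not among the 36. The genes that changed sign were POLR1A (0.034 with the GC correction, 0.033 with the block too), POLR1C (-0.031 and -0.029), RRP9 (0.038 and 0.04, and 0.019 with total counts only), BOP1 (0.21 and 0.21, 0.072 with total counts only and 0.017 with upper quartile scaling), and UTP20 (0.026 with total counts only). Leaving out 1 sample gave -0.06 to 0.058 for UBTF, negative without siMock replicate 3 and without siFUBP1 replicate 3 (-0.024), and -0.076 to 0.029 for BOP1, positive without siFUBP1 replicate 1. The causes were not tested. Same-numbered samples correlated at -0.00469 to 0.123 in their deviations from the group means and others at -0.0918 to 0.0743, so the numbers were not taken to pair the samples. With the replicate block, 28 members were higher and 3 were lower. Low counts limit NOP2 and PPAN most. Of their exonic bases, 54.41% and 56.02% are shared with another gene on the same strand, so their counts may be incomplete.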
